A study of Mus musculus with 4 samples.

Results

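The miR-125 and miR-99/100 families were measured in mouse embryonic stem cells (ESCs) with and without DNA methyltransferases. The probes were found by name, taking every row for miR-125a, miR-125b, miR-99a, miR-99b or miR-100 with any arm, copy number or star. This gave 7 of the 566 mouse probes, 4 of the miR-125 family (mmu-miR-125a-5p, mmu-miR-125a-3p, mmu-miR-125b-5p and mmu-miR-125b-3p) and 3 of the miR-99/100 family (mmu-miR-99a, mmu-miR-99b and mmu-miR-100). The prefix for mouse is left out from here on. The WT group held 2 samples of the R1 line, and the TKO group held 2 samples of R1 cells in which the 3 genes Dnmt1, Dnmt3a and Dnmt3b are knocked out. Both groups were grown on gelatin in serum medium with LIF, and the labels of all 4 samples add 4 days of differentiation before total RNA was taken. The study asked whether mature miRNAs change when DNA methylation is lost. Each genotype was 1 line, so a difference between the genotypes and one between these lines cannot be told apart, and no probe measures the Dnmt genes.

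A miRNA hairpin is cut out of its primary transcript by Drosha and then by Dicer, and either arm of the resulting duplex can be kept as the mature miRNA. The seed, bases 2 to 8 of the mature miRNA, is the part that pairs with most targets. miR-125 is the mammalian relative of lin-4, the founding miRNA of nematode development, and represses Lin28, whose protein in turn blocks the maturation of let-7 in ESCs. The miR-99/100 family is known for repressing mTOR. In animals from flies to mammals, members of these families lie next to a let-7 gene, so that 1 locus can carry a miR-99/100, a let-7 and a miR-125 hairpin.

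The mouse genome holds 3 such loci (RefSeq, GRCm38.p6). The hairpins of miR-99b, let-7e and miR-125a lie on the plus strand of chromosome 17 within 692 bp (17830188 to 17830879), inside the span of the protein-coding gene Spaca6. Those of miR-100, let-7a-2 and miR-125b-1 lie on chromosome 9 within 50578 bp (41531425 to 41582002), inside the span of the noncoding Mir100hg. Those of miR-99a, let-7c-1 and miR-125b-2 lie on chromosome 16 within 47408 bp (77598936 to 77646343), inside no other annotated gene. Exons and introns were not told apart. miR-125b-5p is made from both of the last loci, so its probe cannot be assigned to either.

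The mature sequences are shown because they decide which probes can be read as separate miRNAs (RefSeq, GRCm38.p6, 5′ to 3′, seed in capitals). The miRNAs shown here whose probe names give no arm were taken as the 5p arm. The names themselves do not state the arm. The name miR-125b-3p does not say which hairpin it refers to, and both candidates are shown.
miR-125a-5p: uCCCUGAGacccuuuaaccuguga
miR-125b-5p: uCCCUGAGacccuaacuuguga
miR-351: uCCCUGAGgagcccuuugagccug
miR-125a-3p: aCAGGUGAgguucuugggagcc
miR-125b-1-3p: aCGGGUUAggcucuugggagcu
miR-125b-2-3p: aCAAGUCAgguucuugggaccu
miR-99a: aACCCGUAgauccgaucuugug
miR-99b: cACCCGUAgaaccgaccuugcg
miR-100: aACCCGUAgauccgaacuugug

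The guide arms fell into 2 seed groups. The seed CCCUGAG was held by 5 of 1679 mature miRNAs in the RefSeq table, of which 3 had a probe, miR-125a-5p, miR-125b-5p and the X-linked miR-351. The seed ACCCGUA was held by miR-99a, miR-99b and miR-100 alone in that table. The 3p arm of miR-125a shared its seed with no other miRNA there. Within the miR-99/100 family, miR-99a and miR-100 were identical at 21 of 22 bases and differed by U16A (the base of miR-99a first, counted from the 5′ end). miR-99b differed from miR-99a at 4 bases, which were A1C, U11A, U16C and U21C. miR-125a-5p and miR-125b-5p were identical over their first 13 bases and then diverged. How far the probes of such near copies share signal was not tested.

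The assay counts barcoded probes, and the values are normalized counts. Recovered counts summed to between 511661 and 613666 per sample over all probes. Background was taken from 33 probes for viral miRNAs, whose mean over the samples was 31.5 normalized counts and whose mean plus 2 SD was 69.2. Of the 7 members, 4 had a mean above it (miR-125a-5p, miR-125a-3p, miR-99b and miR-99a), against 42.0% of all mouse probes. By the mean plus 2 SD of each sample's own viral probes, miR-99a was above background in 2 of the 4 samples and miR-125a-3p in 3. The 11 probes for the ESC markers of the miR-290 to miR-295 cluster summed to between 332117 and 338120 normalized counts in WT and between 271498 and 295039 in TKO cells. Of these, 8 had a mean above background and 0 were called, beside 4.24% of all mouse probes called in each direction. In 8, both TKO samples lay below both WT samples, which held for 36% of all mouse probes. The 6 fibroblast and mesenchyme probes summed to 957 and 975 in WT against 1333 and 1348 in TKO cells, with 1 called higher (miR-21). miR-21 alone went from a mean of 463 to 918, while 4 of the 6 had a lower mean in TKO cells. The 4 neural probes summed to 621 and 720 in WT against 300.2 and 302 in TKO cells, with 1 called lower (miR-124). miR-124 alone went from a mean of 478.6 to 133.2. It was the 1 neural probe with both TKO samples below both WT samples. In miR-137, which was below background, both TKO samples lay above both WT samples. Of the 4 neural probes, 2 had a mean above background. The 4 blood probes summed to between 1256 and 1360 in WT and between 1438 and 1588 in TKO cells, with 1 called lower (miR-150). They moved in both directions, and 2 of the 4 had a lower mean in TKO cells. miR-142-3p went from a mean of 784 to 1218.5 without a call, and miR-150 from 408 to 180. The 4 muscle probes were below background. The part of these cell types in the results below was not tested.

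miR-125a-3p, the passenger arm of miR-125a, was lower in TKO cells and was the 1 member called. The WT samples gave 117 and 111 normalized counts of it, the TKO samples 63.3 and 55.7. Both TKO samples lay below both WT samples by more than the gap between replicates of either genotype. The mean fell from 114 ± 4.19 to 59.5 ± 5.31 (SD, n = 2 samples), or by -0.93 on the log2 scale (SE 0.16, limma adjusted p = 0.0403 over all mouse probes). Over all mouse probes 4.24% were called lower and 4.24% higher. The TKO mean lay under the background of 69.2. Subtracting the viral mean before taking logs gave a log2 difference of -1.50 that was not called (adjusted p = 0.149). The call was also lost with each of the 4 samples left out in turn (log2 differences between -1.01 and -0.84, adjusted p between 0.160 and 0.195) and with each sample scaled by its sum (-0.79, adjusted p = 0.109).

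miR-125a-5p, the guide arm of the same hairpin, was not called. It was measured at 975 and 869 normalized counts in WT against 827 and 794 in TKO cells. The groups did not overlap, but the closest WT and TKO values were nearer to each other than the WT replicates were. The log2 difference was -0.18 (95% interval -0.59 to 0.23, adjusted p = 0.551 from limma). This was near the median of all mouse probes, -0.12, and lay at -0.061 once that median was taken off.

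**Figure D1:**
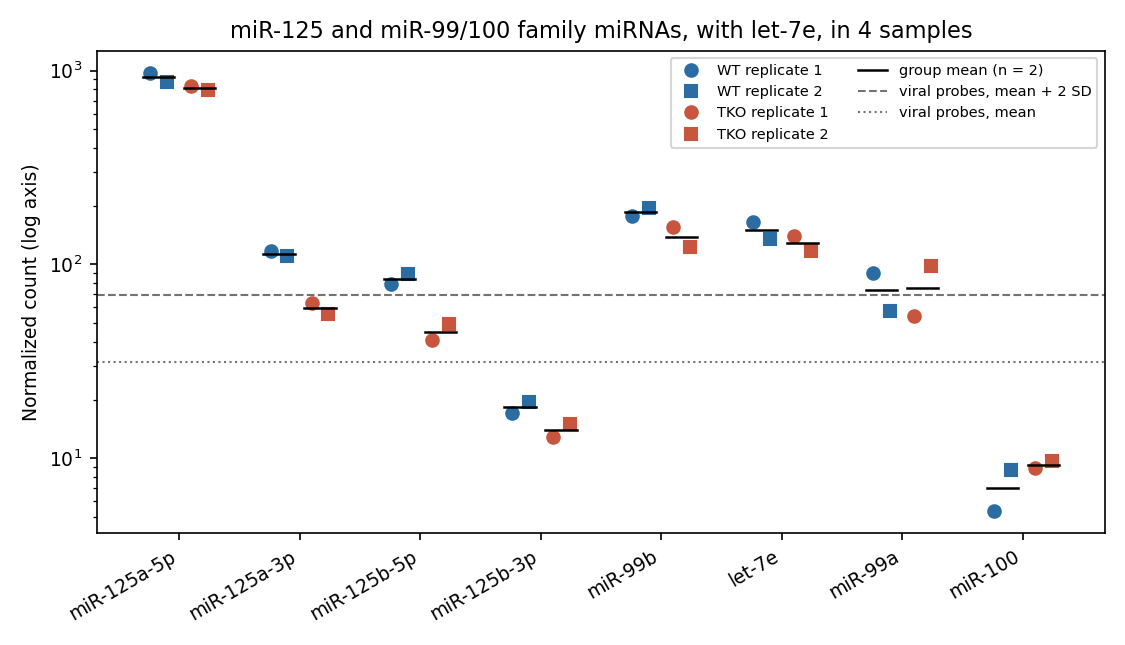
Normalized counts (log axis) of the 7 members and let-7e in each sample, with WT in blue, TKO in red, circles for replicate 1, squares for replicate 2 and black bars for group means (n = 2). Dashed and dotted lines mark the mean plus 2 SD (69.2) and the mean (31.5) of the viral probes. miR-125a-3p falls from 114 to 59.5 while miR-125a-5p stays between 794 and 975.

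Both arms of miR-125a are cut from the hairpin at chr17:17830812-17830879, shown with the arms in capitals because the 2 probes read the mature miRNAs cut from those stretches.
miR-125a hairpin: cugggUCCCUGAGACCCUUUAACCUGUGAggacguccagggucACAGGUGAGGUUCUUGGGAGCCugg

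Whether the arms changed unequally was tested on the 3p minus 5p log2 difference within each sample, in which any scaling of a sample nearly cancels. For miR-125a this was -3.05 and -2.96 in WT against -3.69 and -3.81 in TKO cells. The 2 genotypes were apart by far more than their replicates. The change was -0.74 (SE 0.22, 95% interval -1.29 to -0.19), which did not pass adjustment over the 65 miRNAs with both arms on the panel (unadjusted p = 0.0173, adjusted p = 0.225, limma). Of these pairs 1.54% were called, and 13.8% had an unadjusted p under 0.05. No other of the 65 pairs had a more negative change, and the median change over all pairs was 0.012.

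In miR-125b the point estimates of the arms stood the other way round, at lower counts. miR-125b-5p was measured at 79.2 and 89.4 normalized counts in WT against 40.5 and 49.3 in TKO cells, and the groups did not overlap. The mean went from 84.3 ± 7.19 to 44.9 ± 6.22 (SD, n = 2), a log2 difference of -0.90 (SE 0.18, 95% interval -1.38 to -0.42), which missed the threshold (adjusted p = 0.0610, limma). It passed under 4 of the 13 alternatives run for it, with adjusted p between 0.0335 and 0.239 over all of them. Its mean over the samples, 64.6, lay just under background, so the filter on low values left it out.

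miR-125b-3p was measured at 17.1 and 19.4 normalized counts in WT against 12.9 and 15.0 in TKO cells, below the mean of the viral probes in every sample. Its log2 difference of -0.37 was not called (adjusted p = 0.272, limma) and rests on 13 to 20 recovered counts a sample. The 3p minus 5p difference of miR-125b was -2.15 in both WT samples and -1.58 and -1.65 in the TKO samples. That change of 0.53 (95% interval -0.013 to 1.07) was not called over the 65 pairs (adjusted p = 0.352, limma), and since the 3p values are at background it cannot be read as a property of the arms.

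**Figure D2:**
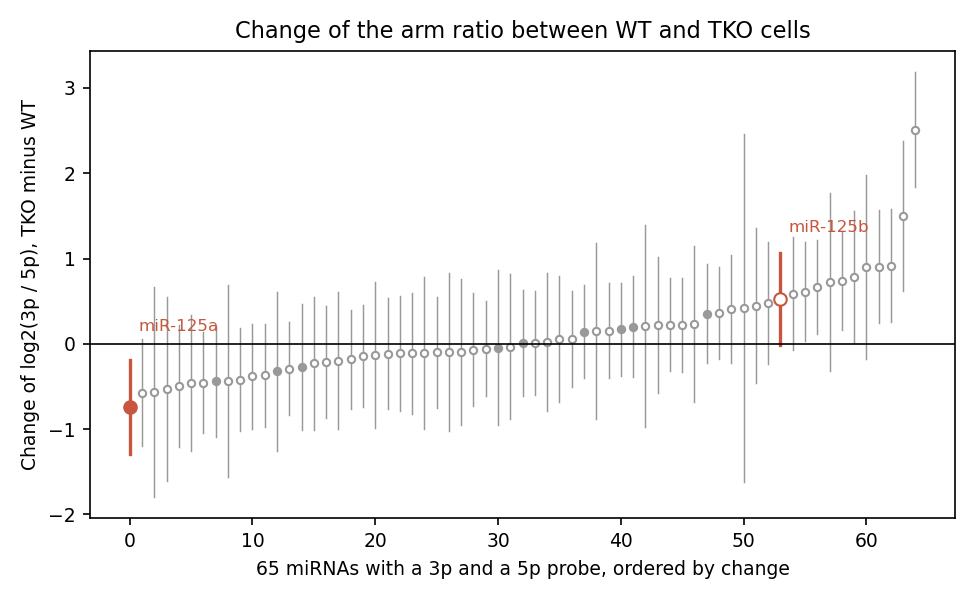
Change of the log2 ratio of 3p to 5p between WT and TKO cells (TKO minus WT) with 95% intervals for the 65 miRNAs with both arms on the panel, ordered by change. Filled points have both arms above background, and miR-125a (-0.74) and miR-125b (0.53) are in red. miR-125a stands at the lower end, and 1 pair in all was called.

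The third miRNA with the miR-125 seed, miR-351 from the X chromosome, was low. It was measured at 24.6 and 26.2 normalized counts in WT against 22.7 and 15.0 in TKO cells. Its log2 difference was -0.44 (95% interval -1.08 to 0.20, adjusted p = 0.347, limma). The 3 miRNAs with the seed CCCUGAG thus had differences of -0.18, -0.90 and -0.44, and none was called. In each of them both TKO samples lay below both WT samples, which held for 36% of all mouse probes.

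miR-99b, the first hairpin of the chromosome 17 locus, was measured at 178 and 195 normalized counts in WT against 155 and 123 in TKO cells. The groups did not overlap, but the gap between them was smaller than that between the TKO replicates. The log2 difference was -0.43 (SE 0.19, 95% interval -0.92 to 0.070, adjusted p = 0.258, limma). It was called under none of the 14 alternatives, where it stayed between -0.59 and -0.26.

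miR-99a of chromosome 16 did not separate the genotypes. It was measured at 89.9 and 57.3 normalized counts in WT against 54.4 and 97.6 in TKO cells, so that each genotype held 1 high and 1 low sample. The log2 difference of 0.021 had an interval from -0.99 to 1.04 (adjusted p = 0.989, limma). It was -0.30 without WT replicate 2 and -0.40 without TKO replicate 2, but 0.34 and 0.44 without the other sample of each genotype. In the recovered counts the spread within WT cells was 84 against 59 (exact Poisson 95% intervals 67.0 to 104.0 and 44.9 to 76.1, counting error only). Within TKO cells it was 55 against 91 (41.4 to 71.6 and 73.3 to 111.7). The intervals overlapped in WT but not in TKO cells.

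miR-100, which differs from miR-99a at 1 base, was close to the lowest counts of the table. Its 5.35 and 8.74 normalized counts in WT against 8.89 and 9.65 in TKO cells stand for 5, 9, 9 and 9 recovered counts. Both TKO values were above both WT values, which held for 17.3% of all mouse probes, but the Poisson intervals of 5 counts (1.62 to 11.7) and of 9 counts (4.12 to 17.1) overlap. The log2 difference of 0.38 was not called (95% interval -0.29 to 1.06, adjusted p = 0.434, limma). miR-100 lay below the mean of the viral probes, 31.5, in every sample, so neither its level nor a difference can be read above background.

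**Figure D3:**
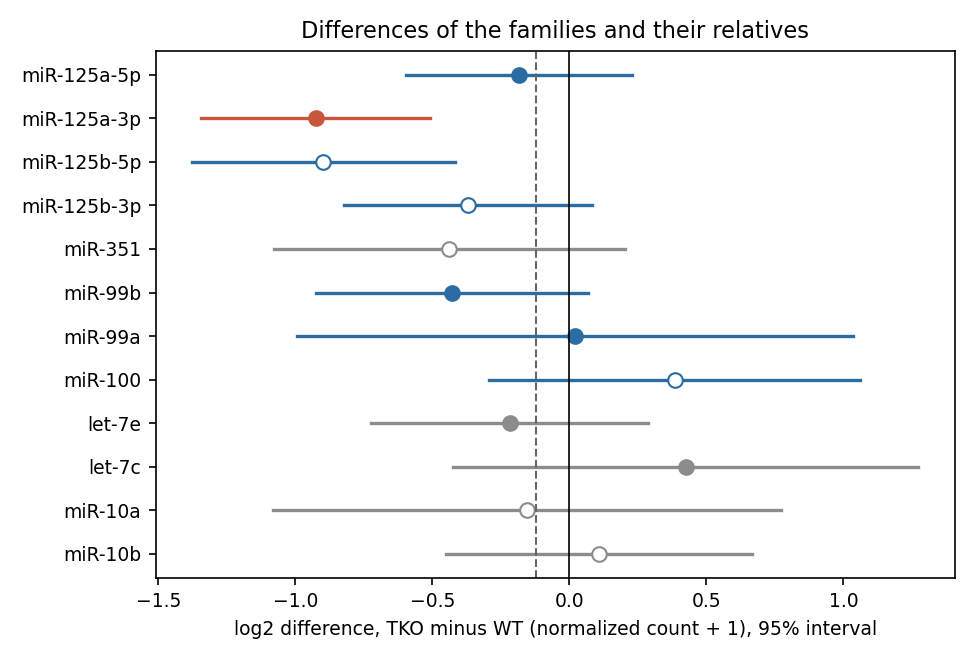
log2 difference (TKO minus WT) with 95% intervals from limma for the 7 members (blue, or red where called) and their relatives (grey). Open points have a mean at or below background, and the dashed line is the median of all mouse probes (-0.12). miR-125a-3p (-0.93) is the 1 called, and miR-125b-5p (-0.90) has a similar size.

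Over the 7 members, 5 had a lower and 2 a higher mean in TKO cells. In 5 of the 7, both TKO samples lay below both WT samples, beside 36% of all mouse probes. The median log2 difference was -0.37, beside -0.12 over all mouse probes, of which 61.7% had a lower mean in TKO cells. These counts include 3 members at or below background. Scaling each sample by its sum moved the median of all mouse probes to 0.0089, and the differences of miR-125a-5p and miR-99b to -0.049 and -0.29. No member changed sign under the 3 other scalings tried (sum, median above background and viral probes).

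The chromosome 17 locus was compared with the other loci through let-7e and the 2 arms of miR-125a beside miR-99b. let-7e was measured at 165 and 135 normalized counts in WT against 139 and 118 in TKO cells, with overlapping groups and a log2 difference of -0.22 (adjusted p = 0.569, limma). The mean log2 level over the 4 probes of the locus was 7.92 and 7.82 in WT against 7.53 and 7.33 in TKO cells, a difference of -0.44. Without miR-125a-3p the difference was -0.28. An exact two-sided permutation of 2 against 2 samples cannot give a p below 0.33.

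Set against miR-99a of chromosome 16 within each sample, the locus mean stood 1.41 and 1.95 log2 units higher in WT against 1.74 and 0.71 in TKO cells. The change of -0.46 was within the spread of the samples (exact permutation p = 0.667) and turned to 0.058 without TKO replicate 2. Set against miR-100 of chromosome 9, the same values were 5.25 and 4.53 in WT against 4.22 and 3.92 in TKO cells. This change of -0.82 separated the groups (exact permutation p = 0.333, the smallest possible), but miR-100 was below the mean of the viral probes in every sample and supplies at most 9 counts, so the value sets the locus against background. Leaving out WT replicate 1 gave -0.46, and leaving out WT replicate 2 gave -1.18. miR-125b-5p, made from the loci on chromosomes 9 and 16, was also set against single probes within each sample. Its difference from miR-99a changed by -0.92 and its difference from miR-125a-5p by -0.71, and in both the groups were apart (exact permutation p = 0.333 each). No design of this size can pass a threshold of 0.05 in these comparisons, so whether the 3 loci responded differently cannot be told from them.

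The let-7 miRNAs of the other loci are also made from precursors elsewhere. let-7c was measured at 306 and 371 normalized counts in WT against 598 and 343 in TKO cells, and its log2 difference of 0.43 was not called (adjusted p = 0.497, limma), with TKO replicate 1 above the other 3 samples. let-7a stood at 1 recovered count in each sample, the lowest count of the table, which was shared in all samples by 1 other mouse probe. That probe therefore gives no information on the miR-100 locus. miR-10a and miR-10b, often grouped with the miR-99/100 family by their sequence, were both below the mean of the viral probes and were not called (-0.16 and 0.11).

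miR-125, let-7 with miR-98, miR-9 and the miR-30 family are all known to repress Lin28. Of 19 probes for them, 1 was called lower (miR-125a-3p, which does not carry the miR-125 seed) and 0 higher. Without the miR-125 probes, let-7 and miR-98 (9 probes) and miR-9 and miR-30 (6 probes) had 0 called in either direction, beside 4.24% of all mouse probes called each way, with median log2 differences of -0.15 and -0.28. Both TKO samples lay below both WT samples for 3 of the 9 and 4 of the 6, beside 36% of all mouse probes.

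The members of 1 locus did not share a methylation label. The authors placed miR-125a in the bilateral group (methylated at both borders of the pre-miRNA), and miR-99b, let-7e and miR-100 in the downstream group. miR-99a, both miR-125b precursors and miR-351 are in the flat group. The paper counts flat loci as unmethylated at the borders, but elsewhere describes them as methylated to a similar degree along the whole locus. The remaining labels are upstream, methylated at the 5′ border, and depleted, the other group that the paper counts as unmethylated. miR-125a-3p was the 1 probe called lower among 22 bilateral probes, and 0 of these were called higher, beside 4.24% called in each direction over all mouse probes. Of 76 upstream probes 6 were called lower and 2 higher, of 80 downstream probes 6 lower and 1 higher, of 28 depleted probes 0 lower and 6 higher, and of 231 flat probes 8 lower and 10 higher. Differences with the downstream label were -0.43 (miR-99b), -0.22 (let-7e, not a member) and 0.38 (miR-100). Those with the flat label were -0.90 (miR-125b-5p), -0.37 (miR-125b-3p), -0.44 (miR-351, not a member) and 0.021 (miR-99a). The one call and the next most negative difference thus came from different labels, and no test between labels was run on so few probes. The hairpin of miR-125a holds 1 CpG, that of let-7e 6, those of miR-99a, miR-125b-1 and miR-100 5, 3 and 2, beside a median of 1 over 1005 mouse hairpins in RefSeq. The flanks, to which the labels refer, were not analysed here.

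**Figure D4:**
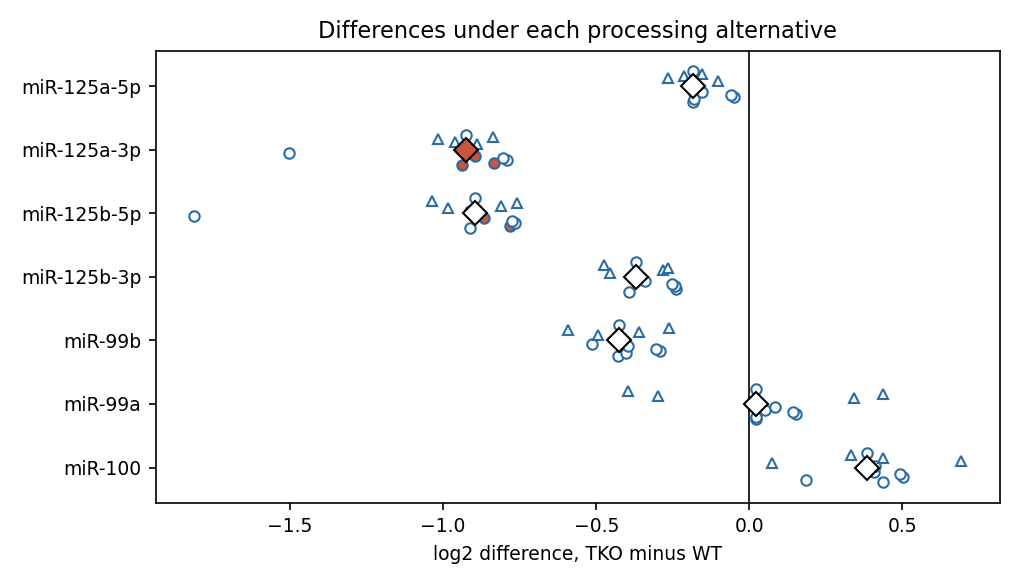
log2 difference (TKO minus WT) of each member as reported (diamonds) and under each processing alternative (circles), with the fits that leave out 1 sample as triangles and called values filled red. miR-125a-3p ranges from -1.50 to -0.79 and miR-125b-5p from -1.81 to -0.76, and miR-99a takes both signs.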

How the data were processed

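Mature miRNA levels came from the NanoString nCounter assay on 4 samples, 2 WT and 2 TKO, grouped by their titles. The authors normalized the counts with nSolver (version, background handling and scaling probes not given in the sources used here) and deposited log2 values. Dividing the unlogged values by 1 factor per sample gave whole counts within a tolerance of 0.05 for 100% of the values.

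From these, log2 of the normalized count plus a pseudocount of 1 was tested with limma (lmFit and eBayes, two-sided) over all 566 mouse probes, with Benjamini-Hochberg adjustment at 0.05. The within-sample log2 difference of the 3p and 5p probes was fitted the same way over 65 arm pairs, and cluster means were compared by an exact permutation test. Background was the mean plus 2 SD of 33 viral probes. Replicates differed beyond counting noise (chi-square per degree of freedom 5.11 for WT and 16.2 for TKO), and the series design calls them biological replicates without saying what separates them, so p-values measure the spread between these samples. Named miRNAs were all rows the rule found, the let-7 miRNAs of the same clusters, miRNAs with the same seed, miR-10a and miR-10b, and the 2 nearest profiles of each member. The members and lists were chosen with earlier results of these data known. Alternatives covered the pseudocount, scaling, filter, background subtraction, variance model, recovered counts (voom), each replicate left out and the replicate block. The fits were tested on simulated data. The authors' methylation groups of precursors were used as labels. Tools were Python 3.11.15 (pandas 2.3.3, numpy 2.4.6, matplotlib 3.10.9, scipy 1.17.1) and R 4.3.3 with limma 3.58.1.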

Additional observations from a re-analysis of the deposited data

How the results depend on the processing

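miR-125a-3p kept its direction under all 14 alternatives and its call under 6. It was not called with sum scaling (-0.79), median scaling (-0.80), viral mean subtraction (-1.50), the replicate block (-0.93, adjusted p = 0.102) or any sample left out (-1.01 to -0.84). miR-125b-5p (-0.90 and not called as reported) was called with a pseudocount of 10 (-0.78), viral probe scaling (-0.87), a variance trend (-0.90) and voom (-0.91), and ranged from -1.04 to -0.76 with 1 sample left out. The sign of miR-99a turned without WT replicate 2 (-0.30) and without TKO replicate 2 (-0.40), over a range up to 0.44. The cluster difference against miR-99a turned without TKO replicate 2 (range -0.98 to 0.058). The other members and the arm change of miR-125a (-1.32 to -0.65) kept sign and call. Members at the floor after viral subtraction (miR-100 and miR-125b-3p) gave no value there. Over all mouse probes 24 were called lower and 24 higher. Lower calls were 13 with viral subtraction, 48 among probes above background, 54 with a variance trend, 55 with voom and 10 with the replicate block. With 1 sample left out they were 0 to 1, and higher calls 0 to 13 (48 to 75 lower and 37 to 54 higher at an unadjusted p under 0.05). The deviations of same-numbered samples correlated at r = -0.094 over mouse probes, so the numbers gave no sign of pairing. The cause of these shifts was not tested. Signal near or below background limits miR-100 and miR-125b-3p most.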

Other observations

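The mouse probes above background with the profile nearest to each member were found by the root mean square distance between log2 values centred over the 4 samples, a description over 4 points with no test. For miR-125a-3p they were miR-200a (distance 0.025), an epithelial miRNA with a log2 difference of -0.90, and miR-374 (0.058, difference -0.90). For miR-125b-5p they were miR-25 (0.090, difference -0.83) and miR-23b (0.096). Of these limma called miR-200a (adjusted p = 0.0454), miR-25 (0.0454) and miR-23b (0.0276) lower in TKO cells, but not miR-374 (0.0624). As neighbours were picked on the same 4 samples, their falls follow from the choice and give the members no separate support.

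For miR-125a-5p the nearest were miR-673-5p (0.013) and miR-1981 (0.018), and for miR-99b miR-24 (0.035) and miR-421 (0.041), none of them called. For miR-125b-3p they were miR-2137 (0.026) and miR-29a (0.055). miR-99a was nearest to miR-1956 (0.131) and miR-664 (0.158), and miR-100 to miR-379 (0.088) and miR-34c (0.155). Of the members, only miR-125a-5p, miR-125a-3p, miR-99b and miR-99a were candidates, since the search took probes above background. None of these was among the 2 nearest profiles of another member, the pair of arms of miR-125a included. Each search had 237 or 238 candidates, few of them members, so this absence does not tell how alike the members are. miR-125b-5p, miR-125b-3p and miR-100 were below background and were not searched as neighbours, so the lists do not bear on them in that role.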
